A study of Mus musculus with 25 samples.

Results

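The complement and coagulation genes of mouse liver described here are 40 genes listed by symbol for their known roles. They were found by gene name in the deposited tables at 40 loci of 46499 in a cohort of mice aged 20 weeks and at 40 loci of 46052 in a cohort aged 39 weeks. C2 and Cfb share 1 locus with the predicted gene Gm20547. Masp1 has 2 loci at the same position, and the files do not state which transcript form or strand each one holds. In both cohorts the Masp1 locus with the lower FPKM is numbered between Kng1 and Pros1, both on the plus strand in GENCODE. Masp1 itself is on the minus strand, so the lower locus may not hold Masp1 transcripts. It is counted with Masp1 by name only. Proz shares a locus with Gm17023, Klkb1 with Cyp4v3, the lower Masp1 locus with Rtp4 at 20 weeks, and C4b with its near-identical neighbour C4a at 39 weeks. The values of these shared loci cannot be split between their genes. Some loci named for a single gene run well past its GENCODE bounds: Serpind1 and Habp2 in both cohorts, and Kng1, C1ra and Mbl1 at 39 weeks. What else these loci hold is not stated. All 40 loci in each cohort were above the filter of a mean of 1 FPKM (fragments per kilobase of transcript scaled to the mapped fragments of the library), among 10963 and 11441 loci tested in all.

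RNA was sequenced from whole livers of 25 C57BL/6 mice, 1 library a mouse. At 20 weeks, 4 untreated mice labelled Ncoa5+/-, heterozygous at the nuclear receptor coactivator gene Ncoa5, were set beside 4 untreated wild type mice. At 39 weeks there were 5 Ncoa5+/- mice on metformin, 5 untreated Ncoa5+/- mice, 3 wild type mice on metformin and 4 untreated wild type mice. Metformin, a biguanide drug for type 2 diabetes, was given in drinking water at about 250 mg per kg a day from 8 weeks of age for 31 weeks. The labels used here do not give sex. The cohorts came from different sequencing facilities and were scaled apart, so values were tested only within a cohort. Ncoa5 itself did not separate the labels. It stood between 2.90 and 5.03 FPKM in Ncoa5+/- livers against 3.11 to 5.30 FPKM in wild type livers at 20 weeks, and between 2.63 and 4.42 FPKM against 3.60 to 4.68 FPKM in untreated livers at 39 weeks, so the genotypes below are those of the labels. In 3 libraries the 50 highest loci held over 70% of the summed FPKM: wild type mouse 4 at 20 weeks, untreated Ncoa5+/- mouse 3 and metformin Ncoa5+/- mouse 5 at 39 weeks.

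Complement is a chain of plasma proteases and binding proteins, most of them secreted by hepatocytes. Mannose-binding lectins or C1 recognise a surface, their proteases cut C4 and C2, the resulting convertases cut C3 and C5, and the terminal proteins C6, C8 and C9 assemble into a membrane pore. Coagulation runs beside it, from the contact factors and tissue factor with factor VII to thrombin and fibrin, held back by antithrombin and the protein C system, with plasmin dissolving the clot. In mice the mannose-binding lectins come from a pair of genes, Mbl1 for lectin A and Mbl2 for lectin C.

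Those lectin genes gave the clearest results below, so the stretch before each gene's start is shown, read on the gene's strand from RefSeq (build GRCm38.p6). At 39 weeks the files place Mbl2 at chr19:30232928-30239685 and Mbl1 at chr14:41151456-41169355 (GRCm38.p5), both protein coding and on the plus strand in GENCODE. The stretches shown are chr19:30232678-30232927 for Mbl2 and chr14:41151206-41151455 for Mbl1. Each holds 250 bases, and capitals mark the best local alignment between them, a block of 45 bases with 38 identical and no gap.
Mbl2: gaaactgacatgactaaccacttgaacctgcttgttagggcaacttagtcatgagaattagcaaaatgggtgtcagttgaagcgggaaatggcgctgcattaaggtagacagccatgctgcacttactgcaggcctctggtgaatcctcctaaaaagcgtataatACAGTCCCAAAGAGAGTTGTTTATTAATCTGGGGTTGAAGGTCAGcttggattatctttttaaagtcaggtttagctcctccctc
Mbl1: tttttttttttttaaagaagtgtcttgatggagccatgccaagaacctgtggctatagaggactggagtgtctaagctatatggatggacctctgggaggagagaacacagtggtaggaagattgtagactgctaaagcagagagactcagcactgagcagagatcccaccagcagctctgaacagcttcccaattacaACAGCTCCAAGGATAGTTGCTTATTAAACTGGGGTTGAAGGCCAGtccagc
The last base of the block lies 41 bases before the Mbl2 start and 7 bases before the Mbl1 start.

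RefSeq promoter entries were matched for 30 of the 40 genes. The core letters GTTAAT, bound by the hepatocyte factor HNF1 and searched on both strands, were found in the 250 bases before 11 of these 30 starts (36.7%), against 6.52% of 27025 mouse promoters. The letters TTNNGCAA of C/EBP factors were in 5 of 30 (16.7%) against 9.55% of all, and TTCNNNGAA of STAT factors in 5 of 30 (16.7%) against 7.18%. CAAAGTCCA of HNF4 was in 0 of 30 against 0.381%. Each word was counted apart, whether or not it overlapped another. These are matches of letters, not shown sites, and none of the 4 words was in the Mbl2 or Mbl1 stretch. Among the terminal complement genes, treated as a group below, 3 of 6 held GTTAAT, and they are shown with the match in capitals on the gene's strand.
Hc: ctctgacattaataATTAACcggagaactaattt
C8b: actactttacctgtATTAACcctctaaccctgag
C8a: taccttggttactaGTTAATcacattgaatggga
They lie at chr2:35061467-35061500, chr4:104766097-104766130 and chr4:104876486-104876519 (GRCm38.p6). The match begins 74 bases before the start of Hc, 206 before that of C8b and 107 before that of C8a. In Hc and C8b it reads ATTAAC, the same word on the other strand.

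The genes were among the most abundant transcripts of these whole livers, in which fewer cells of a type and less RNA per cell cannot be told apart. FPKM is a level per transcript length, so levels can be set beside each other: 24 of 40 loci at 20 weeks and 21 of 40 at 39 weeks were above the 95th percentile of all tested loci, and 29 and 28 had a cohort mean over 100 FPKM. Serpinc1, which encodes antithrombin, was highest, with 2625 FPKM at 20 weeks and 3771 FPKM at 39 weeks. Next came Vtn, encoding the adhesion and plasminogen activator inhibitor cofactor vitronectin, with 1516 and 1583 FPKM. Prothrombin (F2) had 710 and 1103 FPKM, the kininogen gene Kng1 880 and 1032 FPKM, and plasminogen (Plg) 703 and 1014 FPKM. The cohorts were scaled apart, so these pairs are not a comparison of ages. At the low end stood Cfp, the gene of properdin, which steadies the alternative convertase, with 5.35 and 14.4 FPKM, and the lower Masp1 locus with 10.8 and 4.05 FPKM. The upper Masp1 locus had 22.8 and 37.3 FPKM. The contact factor F11 had 25.9 and 21.6 FPKM and Pros1, for the protein C cofactor protein S, 26.3 and 24.0 FPKM. Among procoagulant genes, F10 followed F2 with 310 and 291 FPKM, and F9, F7, F5 and F13b, the carrier subunit of factor XIII, lay between 43.8 and 89.1 FPKM at 20 weeks and between 54.4 and 86.8 FPKM at 39 weeks.

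Levels also varied little between mice. At 39 weeks the highest of 17 mice was under 2-fold above the lowest at 32 of 40 loci, and at 20 weeks, over 8 mice, at 29 of 40. Mbl2 had the widest range at 39 weeks, 4.36-fold, and Cfp followed with 3.66-fold. The SD of log2(FPKM + 1) within groups had a median of 0.16 over the 40 loci at 39 weeks, with 0.09 for Mbl1 at the low end and 0.44 for Cfp at the high end. At 20 weeks that median was 0.21. The loci moved together from mouse to mouse: over 780 pairs of loci at 39 weeks, the median Pearson correlation of deviations from group means was 0.38 across 17 mice. Counts of loci by direction below are therefore not counts of independent genes. These ranges, SDs and correlations were computed for the members only. Whether they differ from those of other loci of like abundance was not tested. Untreated Ncoa5+/- mouse 2 stood above the others at 39 weeks, with a median over the 40 loci 0.23 above the cohort on the log2 scale, and metformin Ncoa5+/- mouse 5 stood lowest, at -0.16.

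**Figure D1:**
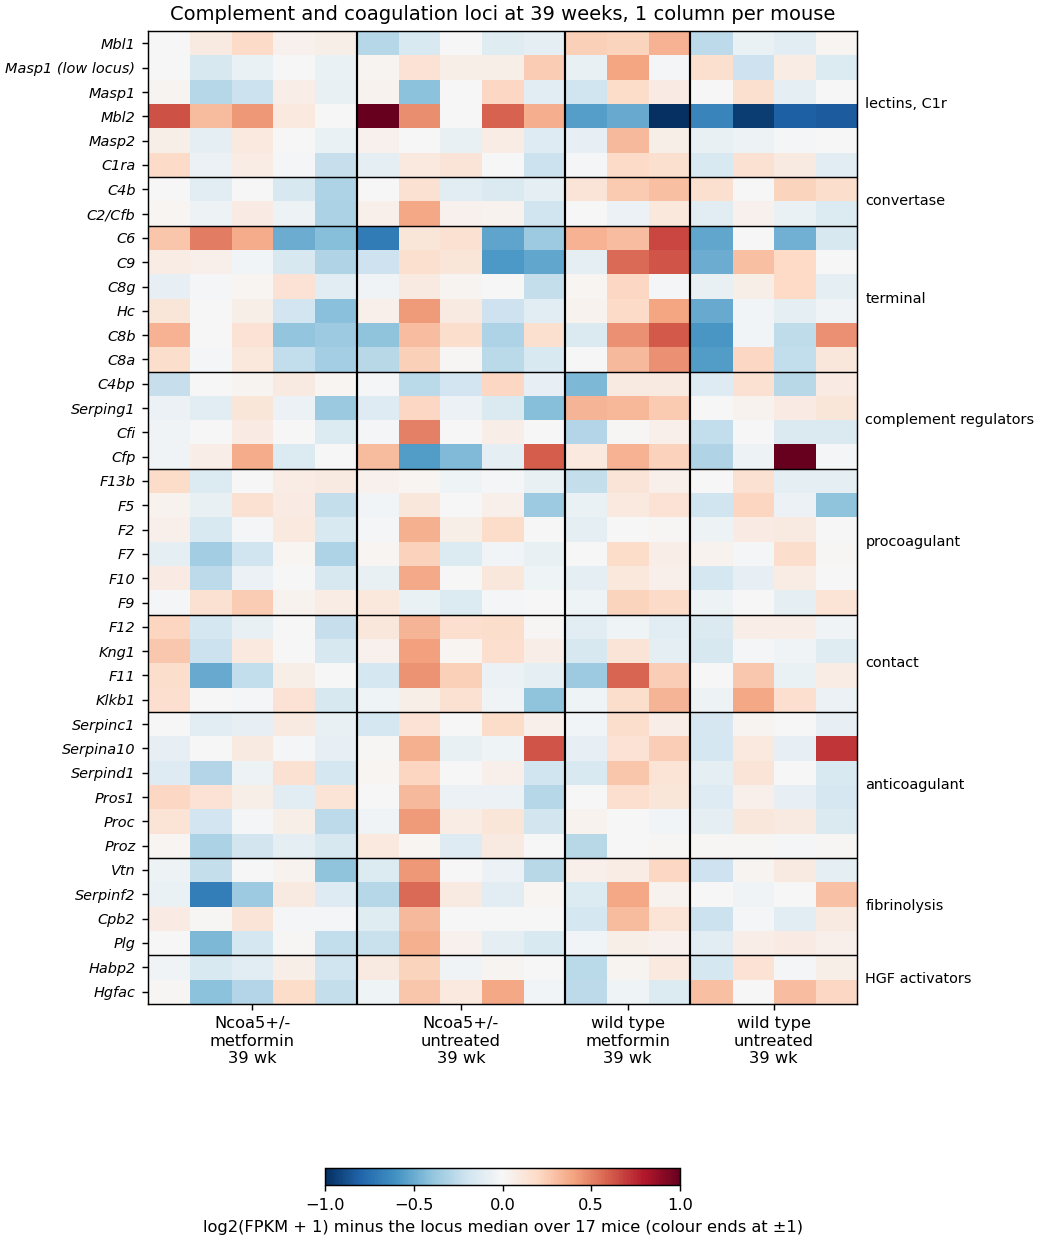
Heat map of the 40 loci (rows, ordered by role) in the 17 livers of the 39-week cohort (columns, by group); colour is log2(FPKM + 1) minus the locus median over the mice. The row of Mbl2 splits by genotype, the 5 treated and 5 untreated Ncoa5+/- livers above the 3 treated and 4 untreated wild type livers, and untreated Ncoa5+/- mouse 2 is raised across many rows.

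Tightest among neighbouring loci were C8a and C8b, which lie next to each other on chromosome 4 on opposite strands and encode chains of complement C8. Their deviations from group means correlated with r = 0.90 and Spearman's rho = 0.89 over 17 mice (permutation test, p = 2e-05 and 1e-05, the second the smallest that 100000 permutations give; Benjamini-Hochberg adjusted over 6 pairs, 0.00012 and 6e-05). Without the 2 mice farthest from the median of C8a, r was 0.87. F7 and F10, adjacent coagulation protease genes on chromosome 8, had r = 0.82 and rho = 0.70 (adjusted permutation p 0.00024 and 0.0066). The other 4 neighbouring pairs had r of 0.48 to 0.62 (adjusted permutation p 0.014 to 0.053). Their rho was 0.39 to 0.61 (adjusted permutation p 0.0216 to 0.126). C4b with C2/Cfb had r = 0.27 without 2 mice. The permutations set each pair against an r of 0, while the median over all 780 pairs was 0.38. A small p therefore does not by itself set neighbours apart from other pairs. All 40 loci share these libraries, and the part of that in the neighbours' correlation was not tested.

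In untreated livers at 39 weeks, 1 of the 40 loci differed by genotype. Mbl2 was 2.48-fold higher in Ncoa5+/- livers, and the rest of the lectin pathway, the convertase and terminal genes, the regulators and the coagulation genes did not pass the test. Mbl2 had 1135, 756, 546.4, 824 and 707 FPKM in the untreated Ncoa5+/- livers, set against 346, 283, 310 and 307 FPKM in wild type livers without metformin. Every Ncoa5+/- liver lay above every wild type liver, and mouse 1 was well above the rest. The means were 794 ± 217 FPKM in Ncoa5+/- livers and 312 ± 25.9 FPKM in wild type livers (SD, n = 5 and 4). The log2 fold change was 1.31 ± 0.18 (SE), adjusted p = 0.00237 in limma with Benjamini-Hochberg adjustment over all loci, the 12th smallest p of 11441. Over all tested loci 0.262% passed in this comparison, 29 higher and 1 lower.

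Its sister gene Mbl1 did not pass. Mbl1 had 156, 172, 190, 176 and 180 FPKM in untreated Ncoa5+/- livers, against 159, 183, 177 and 194 FPKM in untreated wild type livers. The groups covered the same range, with a log2 fold change of -0.03 ± 0.07 and a 95% interval of -0.18 to 0.12. The ratio of Mbl2 to Mbl1 FPKM within a liver was 4.63 ± 1.63 in untreated Ncoa5+/- livers and 1.77 ± 0.29 in untreated wild type livers (SD), with 2.87 to 7.27 over the 5 Ncoa5+/- livers and 1.55 to 2.18 over the 4 wild type livers.

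The proteases that bind these lectins did not pass, nor did the next steps of the pathway. Masp2, whose product cuts C4 and C2, differed by 0.02 on the log2 scale, the upper Masp1 locus by -0.07 ± 0.12 and the C1r gene C1ra by -0.01. C4b with C4a had 366, 406, 339, 330 and 344 FPKM in untreated Ncoa5+/- livers, against 407, 365, 426 and 414 FPKM in wild type livers, a log2 fold change of -0.18 ± 0.08 with adjusted p = 0.868 in limma. The groups overlapped through 2 Ncoa5+/- livers and 1 wild type liver. Cfi, whose product factor I cleaves activated C3 and C4, had 319, 457, 324, 339 and 323 FPKM in untreated Ncoa5+/- livers, against 272, 323, 292 and 292 FPKM in wild type livers. Its log2 fold change was 0.24 ± 0.10, adjusted p = 0.831 in limma, and the value of 457 FPKM came from mouse 2, the library with the highest median over the 40 loci.

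Kng1 was the other locus without overlap in this comparison, where 1.09% of all loci had every Ncoa5+/- liver above every wild type liver and 0.717% every one below. It had 1046, 1346, 1030, 1141 and 1066 FPKM in untreated Ncoa5+/- livers, against 908, 1004, 993 and 934 FPKM in wild type livers. The gap was narrow, with a log2 fold change of 0.22 ± 0.11 and adjusted p = 0.877 in limma. Of the 40 loci 24 had a positive and 16 a negative log2 fold change, with a median of 0.03, and the median of all tested loci was -0.02. At an unadjusted p under 0.05 there were 3 higher and 1 lower of 40, against 321 and 322 of all 11441 loci. For 37 of the 39 loci that did not pass, the 95% interval of the difference lay within 1.5-fold either way, and for all 39 within 2-fold. By role, 6 of 6 anticoagulant loci were positive but by at most 0.09, and no other role had all its loci on 1 side.

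**Figure D2:**
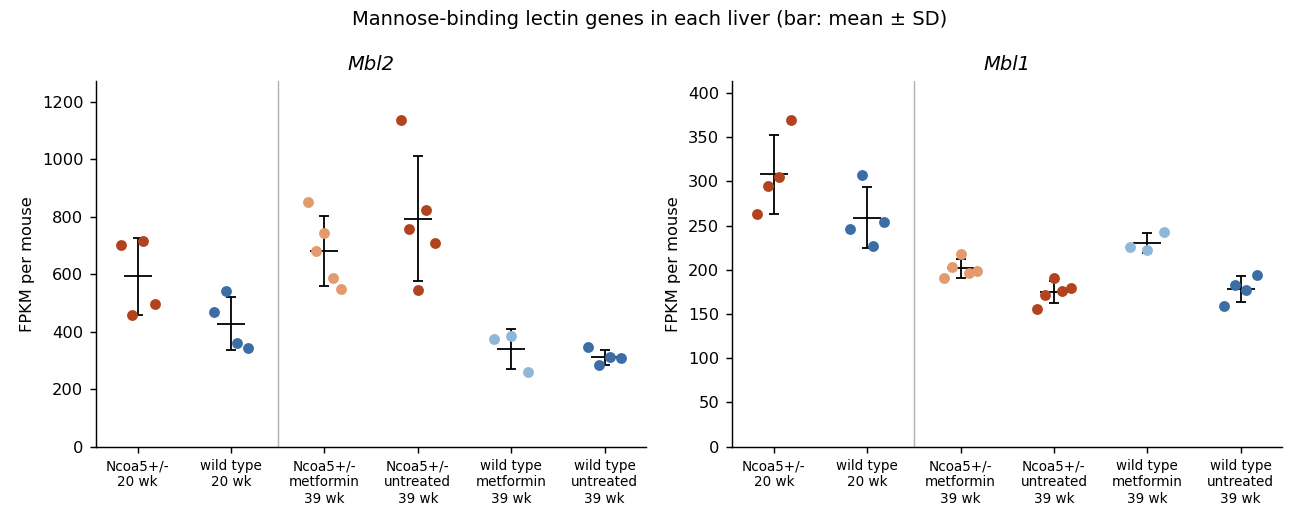
FPKM of Mbl2 and Mbl1 in every liver (points) with the group mean and SD (bars); a grey line parts the cohorts, which were scaled apart. Mbl2 lies at 546.4 to 1135 FPKM in untreated Ncoa5+/- livers and at 283 to 346 FPKM in untreated wild type livers at 39 weeks, while Mbl1 is higher in metformin-treated than in untreated livers of each genotype.

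The Mbl2 difference had the same direction in metformin-treated livers, where no locus of the 40 passed the test. All 6 terminal complement, 6 anticoagulant, 4 fibrinolysis and 2 convertase loci had values below 0 in that comparison, with medians of -0.34, -0.08, -0.22 and -0.21. Mbl2 had 850, 681, 741, 585 and 548 FPKM in treated Ncoa5+/- livers, against 373, 386 and 260 FPKM in treated wild type livers. Every Ncoa5+/- liver was again above every wild type liver. The log2 fold change was 1.01 ± 0.20, adjusted p = 0.0658 in limma, so it did not pass, while 0.157% of all loci did. It passed in 6 of 29 alternatives, with adjusted p of 0.0147 to 0.474 over all of them, among them 0.0147 without untreated Ncoa5+/- mouse 1 and 0.0363 without mouse 3, which enter through the shared estimate of spread. The test of a change of the genotype difference with treatment gave an interaction of -0.30 ± 0.27 (adjusted p = 0.991). Averaged over both treatments the log2 fold change was 1.16 ± 0.13 (adjusted p = 0.000198), where Mbl2 was the 1 locus of 40 that passed and 0.516% of all loci did.

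In treated mice 4 loci were lower in every Ncoa5+/- liver than in every wild type liver, yet none passed. C4b with C4a had 363, 340, 365, 326 and 295 FPKM in treated Ncoa5+/- livers, against 399, 437 and 449 FPKM in treated wild type livers, a log2 fold change of -0.34 ± 0.09 (adjusted p = 0.322 in limma). Serping1, the C1 inhibitor gene, had 443, 427, 502, 444 and 357 FPKM in treated Ncoa5+/- livers, against 586, 583 and 552.4 FPKM in treated wild type livers. Its groups stood clear of each other, with a log2 fold change of -0.41 ± 0.12 and adjusted p = 0.571 in limma. Mbl1 (-0.19 ± 0.08) and Vtn (-0.24 ± 0.14) were the other loci lower in every Ncoa5+/- liver. That makes 4 of 40 lower and 1 higher without overlap, where 1.72% of all loci were lower and 2% higher. Averaged over treatments, C4b with C4a had a log2 fold change of -0.26 ± 0.06 with adjusted p = 0.0789, and Serping1 -0.29 ± 0.08 with adjusted p = 0.204. Without untreated Ncoa5+/- mouse 2 both passed, C4b with C4a at 0.0266. In all, 33 of 40 loci were negative in treated livers with a median of -0.11, against a median of -0.01 over all loci. At an unadjusted p under 0.05 there were 1 higher and 4 lower of 40, against 239 and 259 of all 11441 loci. Treated Ncoa5+/- mouse 5, the lowest library at these loci, and treated wild type mouse 2, which stood 0.18 above the cohort median over the 40 loci, both move with that count. So did the acute phase genes, which hepatocytes raise in inflammation: 9 of 9 were negative with a median of -0.28, and none passed. Their summed level was 4841 to 6610 FPKM in treated Ncoa5+/- livers against 6056 to 7789 FPKM in treated wild type livers. The part of these libraries and genes in the result was not tested. For 30 of 40 loci the 95% interval stayed within 1.5-fold.

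Mbl1 levels were higher with metformin in each genotype, 1.22-fold as a mean of both, just short of the test. Mbl1 had 191, 204, 218, 197 and 198 FPKM in treated Ncoa5+/- livers, against 156, 172, 190, 176 and 180 FPKM in untreated ones. In wild type livers it had 226, 222 and 243 FPKM with metformin, against 159, 183, 177 and 194 FPKM without. All treated livers of a genotype lay above all untreated livers of that genotype, though in Ncoa5+/- livers by under 1 FPKM. The log2 fold change was 0.21 ± 0.07 in Ncoa5+/- livers (adjusted p = 0.418), 0.37 ± 0.08 in wild type livers (adjusted p = 0.264) and 0.29 ± 0.05 for the mean of both (adjusted p = 0.0509, limma), the 9th smallest p of 11441 in that mean. The last passed in 8 of 28 alternatives, with adjusted p of 0.0346 to 0.137 over all of them, among them 0.0452 without untreated Ncoa5+/- mouse 3 and 0.0380 without treated Ncoa5+/- mouse 4. Mbl2 differed by -0.20 ± 0.17 in Ncoa5+/- livers and by 0.11 ± 0.21 in wild type livers on the log2 scale, with 95% intervals of -0.56 to 0.17 and -0.33 to 0.55. The metformin and genotype comparisons at 39 weeks share groups of mice, so they are not independent of each other.

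**Figure D3:**
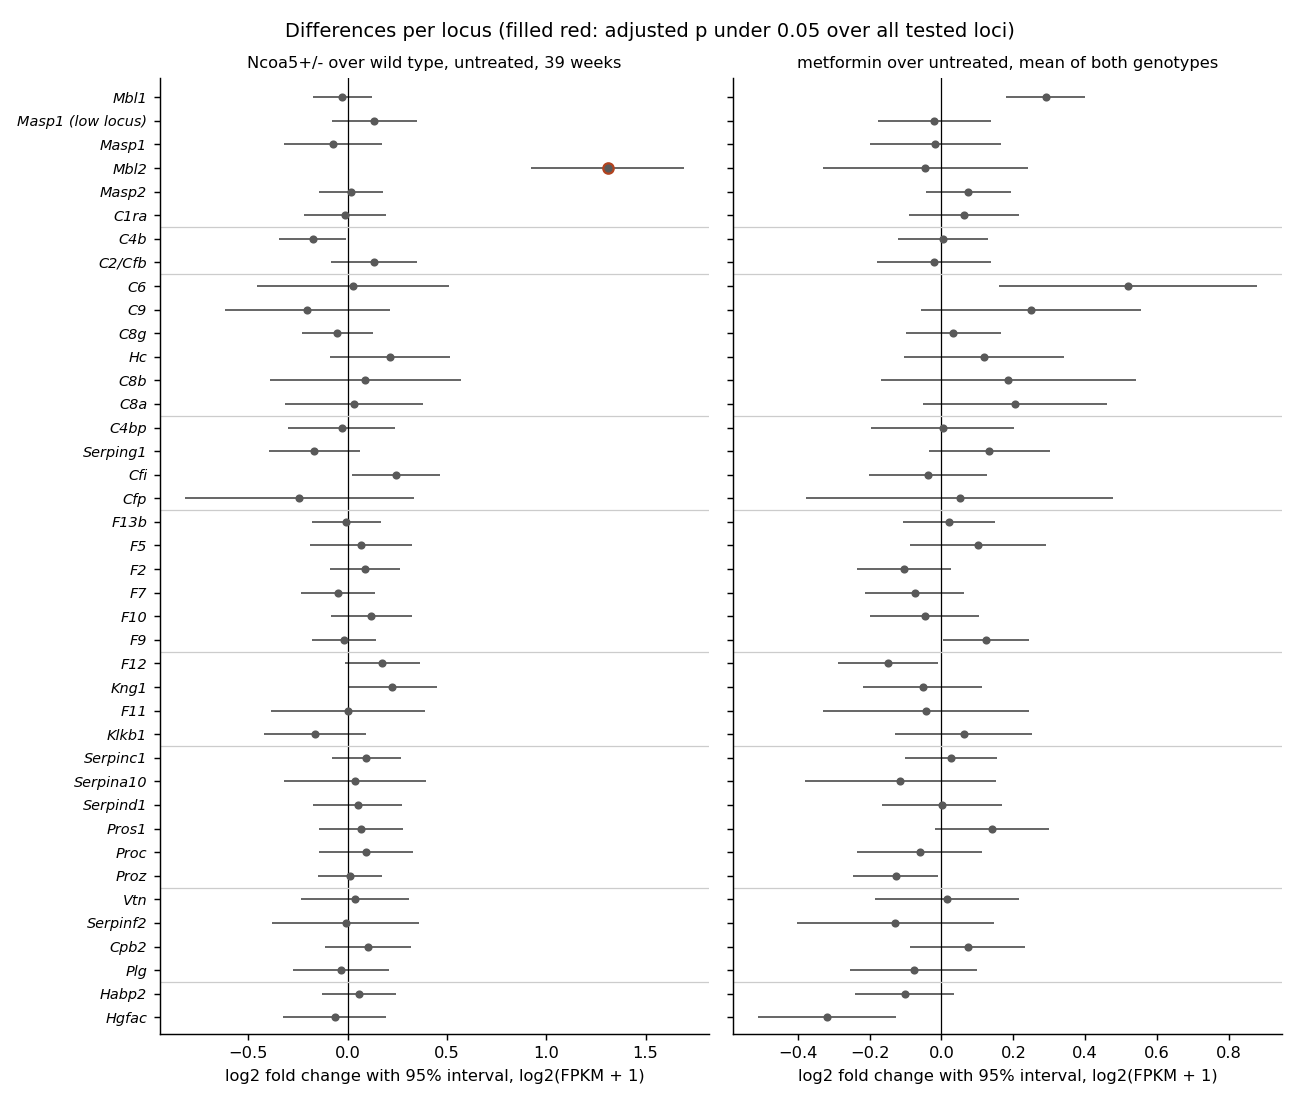
Log2 fold changes of the 40 loci with 95% intervals, on the log2(FPKM + 1) scale, for Ncoa5+/- over wild type in untreated livers (left) and for metformin over untreated as the mean of both genotypes (right), at 39 weeks; horizontal scales differ between panels. Mbl2 at 1.31 is the only point past the adjusted threshold on the left, and no point passes on the right, where Mbl1 stands at 0.29.

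No locus of the 40 passed for metformin in Ncoa5+/- livers, in wild type livers or as the mean of both, where 0%, 0% and 0.035% of all loci passed in limma. At an unadjusted p under 0.05, of 40 loci there were 1 higher and 4 lower in Ncoa5+/- livers, 3 and 1 in wild type livers, and 3 and 3 in the mean. Of all 11441 loci there were 452 and 558, 549 and 521, and 820 and 922. Hgfac, the gene of the protease that activates hepatocyte growth factor, had 140, 104, 113, 158 and 117 FPKM in treated Ncoa5+/- livers, against 134, 168, 148, 182 and 136 FPKM in untreated ones. In wild type livers it had 115, 135 and 126 FPKM with metformin, against 171, 139, 172 and 160 FPKM without. Treated wild type livers all lay below untreated ones, and in Ncoa5+/- livers the groups overlapped. The mean log2 fold change was -0.32 ± 0.09, adjusted p = 0.118 in limma. F12, which starts the contact pathway, had 358, 272, 292, 307 and 261 FPKM in treated Ncoa5+/- livers, against 333, 389, 346, 348 and 310 FPKM in untreated ones. The groups overlapped, with a log2 fold change of -0.22 ± 0.08 and adjusted p = 0.495 in limma.

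The lower Masp1 locus had 3.94, 3.42, 3.72, 3.92 and 3.71 FPKM in treated Ncoa5+/- livers, against 4.03, 4.47, 4.14, 4.14 and 4.88 FPKM in untreated ones. All treated livers lay just below all untreated ones, with a log2 fold change of -0.17 ± 0.09 and adjusted p = 0.626 in limma. With Mbl1 above, it made 1 of 40 loci lower and 1 higher without overlap in Ncoa5+/- livers, where 0.769% of all loci were lower and 0.804% higher. The upper Masp1 locus, at 28.4 to 44.1 FPKM over the 17 mice, differed by -0.04 ± 0.11. In wild type livers Mbl1, C6, Hc and Serping1 were higher and Hgfac lower without overlap, 4 and 1 of 40, where 4.37% of all loci were higher and 3.96% lower.

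The terminal complement genes had all 6 loci above 0 for metformin in wild type livers, with a median log2 fold change of 0.38, and 4 of 6 above 0 in Ncoa5+/- livers, with a median of 0.02. None of the 6 passed in either genotype. Other roles leaned the same way in wild type livers, where 32 of the 40 loci were positive with a median of 0.09, against -0.01 over all loci. All 6 lectin and C1, 4 fibrinolysis and 2 convertase loci were positive there, with medians of 0.12, 0.09 and 0.09. Treated wild type mice 2 and 3 stood 0.18 and 0.10 above the cohort median over the 40 loci and mouse 1 at -0.08, and untreated wild type mouse 1 stood at -0.13. The part of these libraries in the result was not tested. C6, which links C5b to the pore, had 117, 114 and 146 FPKM in treated wild type livers, against 63.8, 91.7, 65.4 and 81.8 FPKM in untreated wild type livers. In Ncoa5+/- livers C6 had 111, 131, 119, 64.6 and 67.9 FPKM with metformin, against 56.0, 99.9, 102, 63.2 and 71.1 FPKM without. The wild type groups were clear of each other, and the treated Ncoa5+/- livers split into 3 above and 2 within the untreated range. The log2 fold change was 0.73 ± 0.26 in wild type livers (adjusted p = 0.398), 0.31 ± 0.22 in Ncoa5+/- livers (adjusted p = 0.70) and 0.52 ± 0.17 for the mean (adjusted p = 0.160, limma).

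Hc, which encodes C5, had 194, 217 and 249 FPKM in treated wild type livers, against 133, 186, 177 and 185 FPKM in untreated wild type livers. In Ncoa5+/- livers Hc had 207, 189, 197, 166 and 142 FPKM with metformin, against 196, 255, 202, 164 and 175 FPKM without. Treated wild type livers were all above untreated ones, and the Ncoa5+/- groups overlapped. The test of the difference between genotypes in the metformin effect gave -0.51 ± 0.21 for Hc, adjusted p = 0.991 in limma, and -0.30 ± 0.15 for the lower Masp1 locus, the next smallest p. No locus of the 40 passed this test, and 0% of all loci did. Of the 40 interaction values 35 were negative with a median of -0.17, against a median of 0.01 over all loci, and 6 of 6 terminal loci were negative with a median of -0.39. All 6 lectin and C1, 6 anticoagulant, 4 fibrinolysis and 2 convertase loci were negative too, with medians of -0.14, -0.15, -0.22 and -0.19. At an unadjusted p under 0.05 there were 0 positive and 1 negative of 40, against 136 and 183 of all 11441 loci.

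**Figure D4:**
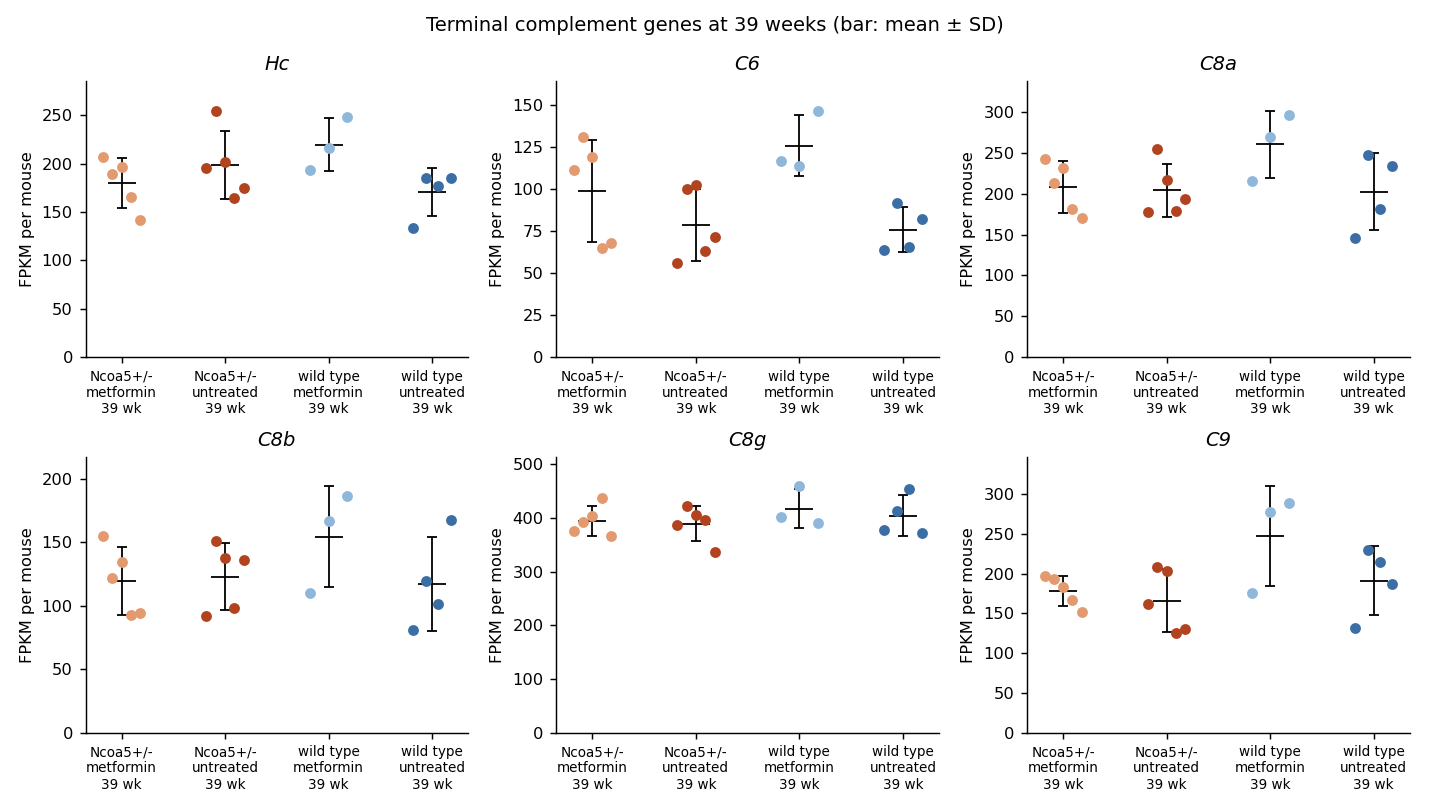
FPKM of the 6 terminal complement genes in the 17 livers at 39 weeks (points) with the group mean and SD (bars). In treated wild type livers Hc lies at 194 to 249 FPKM and C6 at 114 to 146 FPKM, above all untreated wild type livers, while for C8a, C8b, C8g and C9 the groups overlap.

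At 20 weeks none of the 40 loci passed for genotype, and 0% of all loci did. Of the 40, 31 had a positive and 9 a negative log2 fold change, with a median of 0.13, against 0.03 over all loci. At an unadjusted p under 0.05 there were 5 higher and 0 lower of 40, against 554 and 266 of all 10963 loci. All 6 terminal, 4 contact, 4 fibrinolysis and 2 convertase loci were positive, with medians of 0.22, 0.16, 0.13 and 0.29. Hc had 188, 238, 280 and 274 FPKM in Ncoa5+/- livers, against 169, 199, 138 and 140 FPKM in wild type livers. The lowest Ncoa5+/- liver lay below the highest wild type liver. The log2 fold change was 0.60 ± 0.18, adjusted p = 0.603 in limma. Cpb2, the gene of the thrombin-activated carboxypeptidase that slows clot lysis, had 316, 304, 346 and 297 FPKM in Ncoa5+/- livers, against 256, 273, 217 and 216 FPKM in wild type livers. Its groups did not overlap, with a log2 fold change of 0.40 ± 0.13 and adjusted p = 0.603. Cfi was the other locus higher in every Ncoa5+/- liver, with 340, 307, 396 and 334 FPKM against 282, 295, 243 and 202 FPKM in wild type livers. That is 2 of 40 higher and 0 lower without overlap, where 2.96% of all loci were higher and 1.06% lower.

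Mbl2 at 20 weeks had 702, 459, 714 and 495 FPKM in Ncoa5+/- livers, against 468, 540, 359 and 344 FPKM in wild type livers. The groups overlapped, with a log2 fold change of 0.47 ± 0.22, a 95% interval of -0.03 to 0.96 and adjusted p = 0.603 in limma. Whether this differs from the 39-week difference was not tested, since the cohorts were scaled apart. The ratio of Mbl2 to Mbl1 was 1.98 ± 0.63 in Ncoa5+/- livers and 1.65 ± 0.24 in wild type livers at that age (SD, n = 4 each). In the authors' deposited table for 20 weeks Mbl2 had a log2 fold change of 0.46 with p = 0.0244 and q = 0.35. No member had a q under 0.05 in the authors' deposited tables, which cover genotype at 20 weeks and metformin in Ncoa5+/- livers. Over all loci the authors tested, 294 of 13975 had a q under 0.05 at 20 weeks and 173 of 14159 at 39 weeks. In limma 0% of all loci passed in either comparison.

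Other signals moved with the 20-week comparison. All 10 acute phase genes tested had positive log2 fold changes with a median of 1.29, and their summed level was 6479 to 29555 FPKM in Ncoa5+/- livers against 4847 to 6807 FPKM in wild type livers. All 8 macrophage and Kupffer cell markers had negative ones with a median of -0.64, with a summed level of 26.2 to 47.8 FPKM in Ncoa5+/- livers against 34.1 to 92.4 FPKM in wild type livers. Both neutrophil genes tested, S100a8 and S100a9, were positive with a median of 0.98, and the neutrophil list summed to 1.70 to 17.9 FPKM in Ncoa5+/- livers against 1.997 to 2.94 FPKM in wild type livers. All 4 stellate cell markers tested were negative with a median of -0.12, at a summed level of 49.0 to 68.0 FPKM in Ncoa5+/- livers against 46.6 to 70.1 FPKM in wild type livers. Of the hepatocyte markers, Tat, the tyrosine aminotransferase gene, had 774 ± 121 FPKM in Ncoa5+/- livers and 382 ± 259 FPKM in wild type livers (SD, n = 4 each), a log2 fold change of 1.198 ± 0.36 with adjusted p = 0.603 in limma, while G6pc differed by 0.43 and Cps1 by -0.12. All 3 erythroid and 2 platelet genes tested were positive, with medians of 0.26 and 0.34. Of 8 endothelial markers 6 were negative and 2 positive, with a median of -0.15. No gene of these lists passed the test, and their part in the member counts was not tested. Kng1 had 994, 1027, 900.5 and 951 FPKM in Ncoa5+/- livers, against 1001, 1076, 561 and 533.5 FPKM in wild type livers. For Kng1, wild type mice 3 and 4 stood apart from all others. They were also below the other wild type mice at Klkb1, Cpb2, Hc, Cfi, Mbl2, C2/Cfb, Vtn and Plg. The same held at Proc, Pros1, C8g, F2, F7, F9 and F10. For Hc they had 138 and 140 FPKM against 169 and 199 FPKM. At other loci they were above them, as for C8a with 238 and 240 FPKM against 185 and 200 FPKM. They were above them too at F13b, F5, C4bp, Serpinf2, Serpina10, C6, C9, C4b, C8b, Proz, F11, Cfp and the upper Masp1 locus. The part of this split in the counts of members by direction was not tested. Across the alternatives run, among them a fit without wild type mice 3 and 4 together, no member passed at this age. The log2 fold change of Hc was 0.40 to 0.77 over them. In untreated livers at 39 weeks the macrophage markers were negative in 8 of 8 with a median of -0.36, at a summed level of 71.6 to 206 FPKM in Ncoa5+/- livers against 116 to 328 FPKM in wild type livers, and acute phase genes in 7 of 9 with a median of -0.11. Of 8 hepatocyte markers, only Cps1, Tat and G6pc were present in every liver and tested. Alb and Serpina1c were listed at 0 in all and are not read as levels. At 20 weeks Ttr and Cyp2e1 were listed at 0 in all wild type livers, and Apoa1 in all livers. At 39 weeks Ttr and Apoa1 were listed at 0 in both Ncoa5+/- groups, and Cyp2e1 in the treated Ncoa5+/- group. These zeros are not read as levels either.

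The rest of the pathway gave no call either. A list of 46 other complement, coagulation and fibrinolysis genes had 29 loci tested at 20 weeks and 30 at 39 weeks, and 0 passed in any of the 8 comparisons. In untreated livers at 39 weeks 9 were positive and 21 negative. At an unadjusted p under 0.05, 1 was higher and 1 lower, against 321 and 322 of all 11441 loci. Kng2, the second mouse kininogen gene, had 191 ± 25.6 FPKM in untreated Ncoa5+/- livers and 150 ± 12.97 FPKM in untreated wild type livers (SD), a log2 fold change of 0.34 ± 0.11 with adjusted p = 0.50 in limma, and Cfd, the factor D gene, was the lower one at -1.34 ± 0.62. C3, the central complement component, was listed at 0 in all untreated Ncoa5+/- livers at 39 weeks and was left out of the tests as a failed estimate. Of 16 liver transcription factors listed, including C/EBP and HNF genes, 0 loci passed in any comparison, with at most 3 at an unadjusted p under 0.05. Those 3 were for metformin as the mean of both genotypes, 1 higher and 2 lower of 17 loci. Of all 11441 loci there were 820 and 922.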

How the data were processed

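Per the labels' protocols and the submitters' processing notes, the authors trimmed reads with Trimmomatic 0.33 and used TopHat2, Cufflinks and Cuffnorm with GRCm38.p5. The deposited values are FPKM per locus and mouse, scaled within each cohort by Cuffnorm. The authors' deposited comparison tables give each locus group FPKM values with their log2 ratio, a q-value and a p-value. No read counts are in the files used, so depth is unknown and precision rests on the spread between mice.

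Here log2(FPKM + 1) was modelled in R 4.3.3 by limma 3.58.1 (lmFit, then eBayes with trend) over loci with a cohort mean of at least 1 FPKM, with Benjamini-Hochberg adjustment over all tested loci and a threshold of 0.05. Fold changes are on that scale, which understates low genes, and ± after one is the standard error. Loci at 0 throughout a group, though above 0 in all mice of another that averaged 1 FPKM or more, were left out as failed estimates (15 loci at 20 weeks and 14 at 39 weeks, no member). Neighbouring loci were compared with 100000 permutations. The fit was tested on simulated data.

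Members and gene lists were chosen with earlier results of these data known. The difference of Mbl2 in untreated livers at 39 weeks was among those results and is not independent support. Mouse values are given for members that passed in any comparison and for the 2 with the smallest p in each. Kng1, Serping1, the 20-week values of Mbl2 and Cfi, and the 20-week wild type values of C8a fall outside that rule. They were added after their values were seen. Mouse numbers follow deposit order and pair nothing. The labels name 1 mouse a library, and litters are not given.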

Additional observations from a re-analysis of the deposited data

Results flagged for a closer look

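In 12 members with values per mouse, C8a left out, 65 groups of 4 or 5 mice were examined. A mouse far from the rest of its group stood out in 4, where chance gives about 1 in 20. Hgfac had 212.5 FPKM in Ncoa5+/- mouse 1 at 20 weeks, against 71.8 to 90.4 FPKM in the other 3. Cpb2 had 238.1 FPKM in untreated Ncoa5+/- mouse 2 at 39 weeks, against 174 to 190 FPKM in the other 4. Cfi had 456.9 FPKM in that same mouse, against 319 to 339 FPKM in the others. Hc had 133.4 FPKM in untreated wild type mouse 1 at 39 weeks, against 177 to 186 FPKM in the other 3.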

How the results depend on the processing

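The Mbl2 call in untreated livers at 39 weeks held in all 29 alternatives run, with log2 fold changes of 1.17 to 1.43 and adjusted p of 0.00122 to 0.0367 in limma. The number called in metformin-treated livers was 1 (Mbl2) in place of 0 with a pseudocount of 0.1, quantile normalization or failed estimates kept at 0. It was also 1 without untreated Ncoa5+/- mouse 3 and metformin Ncoa5+/- mouse 5, the 39-week libraries over 70% in 50 loci. When single mice were left out it was 0 to 1. The number called for genotype averaged over treatments was 2 in place of 1 with array weights, and 1 to 3 when single mice were left out, 3 without untreated Ncoa5+/- mouse 2. The number called for metformin averaged over genotypes was 1 (Mbl1) in place of 0 with a minimum mean of 5 FPKM, quantile normalization, a median shift, array weights, failed estimates kept at 0 or without those libraries, and 0 to 1 when single mice were left out. The cause of these changes was not tested. No direction reversed. Counts in the other comparisons stayed as given. No paired analysis was possible because the labels carry no replicate numbers. FPKM gives no depth, so counting error is unknown.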
